A study of Homo sapiens with 6 samples.

Results

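CCDC69 (ENSG00000198624) encodes a coiled-coil protein, and this report describes its level in cells carrying wild-type or mutant U2AF1. It was selected among 31142 genes of the expression table because its values were lower in every S34F library than in every WT library, with little spread within either group. That selection used the same S34F and WT values, so its levels, fold difference and ranks are given as a description and carry no test. U2AF1 is the small subunit of the splicing factor that recognises the AG at the 3′ end of introns, and S34F replaces a serine of its first zinc finger, a recurrent change in myelodysplastic syndromes (MDS). The study asked how S34F alters gene expression in SKM-1, an acute myeloid leukaemia line established after progression from MDS. A group of 3 RNA-seq libraries from cells expressing FLAG-tagged U2AF1 with S34F (S34F) was compared with 3 libraries labelled U2AF1-WT with a wild-type genotype (WT). The study's methods describe stable delivery of both the wild-type and the mutant sequence by a GV492 lentivirus, in which a ubiquitin promoter drives the insert beside GFP and puromycin resistance, with cells studied at 96 h, and the host cells kept their own U2AF1 alleles. The titles of the WT libraries begin with NC, the study's abbreviation for negative controls. Its methods say that negative controls were untransfected cells, and for RNA-seq they name a vehicle control. The labels do not say whether these cells carried the wild-type construct, a control vector or no construct. If they carried none, the groups also differ in lentivirus, GFP and puromycin resistance. The study's text calls the RNA samples independent, but neither it nor the labels say whether the 3 libraries of a group came from separate cultures, so a p-value measures only the spread between these libraries.

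CCDC69 binds microtubules through its coiled coils and is found at the central spindle, the bundle of antiparallel microtubules that forms between the separating chromosomes in anaphase. The central spindle is built by the bundling protein PRC1 with the motor KIF4A, by centralspindlin (KIF23 with RACGAP1), and by the chromosomal passenger complex with its kinase AURKB, and PLK1 acts there as well. CCDC69 is known as a regulator of the assembly of this structure and of the placing of these components. The annotation columns of the deposited table gave CCDC69 the terms spindle midzone, spindle midzone assembly, midbody and microtubule binding. Its gene lies on the long arm of chromosome 5, an arm that is often partly lost in MDS.

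In the GENCODE 29 annotation of GRCh38, CCDC69 occupies chr5:151181052-151224145 on the minus strand, a span of 43094 bases. The build behind the expression table is not given in the sources used here. The table lists 8 transcripts for the gene, and all 8 were found in GENCODE 29. Only ENST00000355417 is annotated as protein coding, with 9 exons, 3451 bases and 888 coding bases. ENST00000521308, an 8-exon processed transcript of 3323 bases, passes from exon 1 to exon 3. ENST00000522964, a 479-base transcript annotated for nonsense-mediated decay, passes from exon 3 to exon 5. The other 5 are a pair of retained-intron transcripts (ENST00000519448 and ENST00000524344), a pair annotated for nonsense-mediated decay (ENST00000518189 and ENST00000519740) and the processed transcript ENST00000522179. The plot of transcript structures shows that most of the exonic length lies in exon 9, which is 2563 bases long and holds 175 coding bases. The deposited level is 1 value per gene, so these transcripts could not be told apart in either group.

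ENST00000521308 lacks exon 2 of the coding transcript (chr5:151205400-151205475, 76 bases), and ENST00000522964 lacks exon 4 (chr5:151198997-151199084, 88 bases), among other differences. Both are wholly coding in ENST00000355417, and neither length is a multiple of 3. The joins below, from the GENCODE 29 transcript sequences on the minus strand of GRCh38, are shown because reads across them would tell whether exon 2 or exon 4 was included, and the capitals mark the first bases of the second exon of each join. The 3′ splice site, at chr5:151184433-151184465 on the same strand, is the one before exon 8, and could be read because the retained-intron transcript ENST00000519448 runs through it. Its capitals mark the last 3 bases of the intron, where U2AF1 contacts the RNA.
junction of exons 1 and 2: aaacccccgaaaaagAAGCGCCAAGAACCA
junction of exons 1 and 3: aaacccccgaaaaagCTATAACTGTCCAGC
junction of exons 3 and 4: aaatgggcacaacagGTGGAGAAGGAAAGG
junction of exons 3 and 5: aaatgggcacaacagTCCTCCGGGCCTCAT
3' splice site before exon 8: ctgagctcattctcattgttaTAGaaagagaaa
Use of this site, and the shares of the joins in S34F and WT libraries, were not tested.

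Several facts of the whole data set bear on what follows. Depth, estimated from what 1 fragment is worth in genes with 1 exon and 1 transcript, was 20.5 to 26.1 M fragments per library. U2AF1 itself stood at 9.24, 9.48 and 9.18 FPKM (fragments per kilobase of transcript per M fragments) in S34F replicates 1, 2 and 3 and at 8.67, 8.70 and 7.65 FPKM in WT replicates 1, 2 and 3. Its log2 fold change was 0.14, with an adjusted p of 1.00 by limma with Benjamini-Hochberg adjustment, and the gene-level value does not separate the mutant from the wild-type allele. The first principal component, 47.9% of the variance, set S34F replicate 3 and WT replicate 3 apart from the other 4 libraries. The cells did not carry the marker pattern of their labelled type. All 12 erythroid markers were present, with a median of 551 FPKM, while 8 of 12 monocytic markers were under 1 FPKM, among them CD14, MPO, CSF1R, S100A8, FCN1 and VCAN. Of the 10 lymphoid markers, 7 were in the table and 1, CD3D, was over 1 FPKM.

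CCDC69 was lower in all 3 S34F libraries. It stood at 6.58, 5.84 and 6.12 FPKM in WT replicates 1, 2 and 3. In S34F replicates 1, 2 and 3 it stood at 1.88, 2.07 and 1.62 FPKM. The lowest WT value was 2.82 times the highest S34F value, so the groups did not overlap.

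The mean was 6.18 ± 0.375 FPKM in WT (SD, n = 3) and 1.86 ± 0.228 FPKM in S34F (SD, n = 3), or 0.300 of the WT level. The spread within a group was small, with a coefficient of variation of 6.07% in WT and 12.3% in S34F. On the log2(FPKM + 1) scale, which understates the change of low genes, the log2 fold change was −1.33 (SE 0.11), and the log2 ratio of the mean FPKM values was −1.74. Between libraries with the same replicate number, S34F stood at 0.285, 0.355 and 0.264 of WT. Without both libraries numbered 3, which stood apart on the first component, the S34F mean was 0.318 of the WT mean.

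In WT cells CCDC69 was a mid-level gene, and in S34F cells it stood among the lower of the genes compared. Of the 10942 genes with a mean of at least 1 FPKM over the 6 libraries, 56.0%, 52.8% and 55.2% lay below CCDC69 in WT replicates 1, 2 and 3. In S34F replicates 1, 2 and 3, 19.1%, 22.7% and 13.7% lay below it. CCDC69 remained well above the detection limit in every library: for its 3451-base transcript the S34F values correspond to about 133, 166 and 138 fragments and the WT values to about 587, 526 and 522. A count of 3 fragments would be 0.0333 to 0.0425 FPKM. The 95% exact Poisson intervals reached 2.41 FPKM at most in S34F and started at 5.35 FPKM at least in WT. These intervals cover counting error only and rest on the estimated depth. In a bulk library, fewer cells that express CCDC69 and less CCDC69 RNA per cell cannot be told apart.

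Among all genes compared, CCDC69 combined a large difference with a small spread. Its groups were separated by 1.16 on the log2(FPKM + 1) scale, from the highest S34F to the lowest WT library, the widest such gap of the 10942 genes. The groups failed to overlap in 808 of these genes, 7.38%, of which 408 were lower and 400 higher in S34F, and CCDC69 was selected as one of them. Its pooled within-group SD was 0.0978 on the same scale. Of the 4481 genes with a mean between 2.01 and 8.04 FPKM, the median within-group SD was 0.182, and 14.4% had a smaller SD than CCDC69. Gap divided by SD was 11.8 for CCDC69, and it was higher in 1 gene, AC156455, at 12.9.

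By the size of the fall alone, CCDC69 ranked 12 of 10942. The 11 genes with a larger fall had within-group SDs of 1.10 to 2.96, and 6 of them were listed at 0 in at least 1 library. In 2 of the 11 the groups did not overlap, with a gap of at most 0.15. MYC, a growth-promoting transcription factor chosen here after its values were seen, is among the 11: it stood at 1.19, 1.23 and 1.10 FPKM in S34F replicates 1, 2 and 3 and at 28.3, 1.24 and 10.01 FPKM in WT replicates 1, 2 and 3. Its WT libraries spanned a wide range, and WT replicate 2 lay almost level with the S34F libraries. CCDC69 had no such library.

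**Figure D1:**
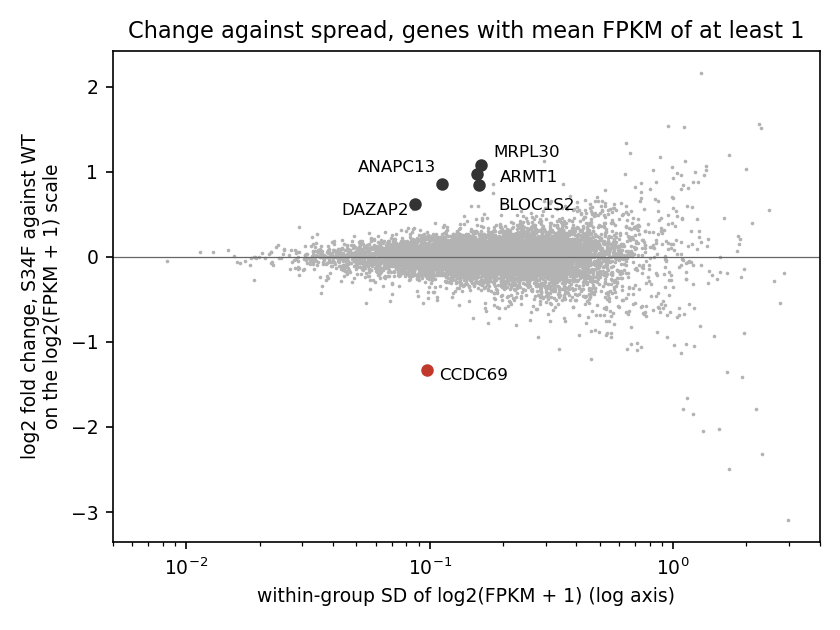
Log2 fold change of S34F against WT on the log2(FPKM + 1) scale (vertical axis) against the pooled within-group SD on that scale (horizontal log axis) for the 10942 genes with a mean of at least 1 FPKM. CCDC69 (red, −1.33 at an SD of 0.0978) and the next 5 genes in the order of p (black) are named, and the 11 points further down than CCDC69 all have an SD of at least 1.10.

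CCDC69 ranked 1 of 10942 by limma's p, which comes from the same contrast that it was selected on. The 5 genes that followed it were all higher in S34F. The nearest was MRPL30, a protein of the mitochondrial ribosome, with means of 19.7 FPKM in S34F and 8.73 FPKM in WT and a log2 fold change of 1.08. ANAPC13, a subunit of the anaphase-promoting complex, which drives exit from mitosis, followed with 13.4 against 6.98 FPKM. Next came ARMT1 with 5.33 against 2.21 FPKM and BLOC1S2, a subunit of a lysosome-related organelle complex, with 6.18 against 2.999 FPKM. DAZAP2 followed with 18.9 against 11.96 FPKM. Their gaps between groups ran from 0.44 to 0.78 against 1.16 for CCDC69. With 1 library left out, CCDC69 ranked 1 to 4 by p, and it ranked 13 without both libraries numbered 3.

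Across the 6 libraries, the genes whose pattern was most like that of CCDC69 had much smaller differences. Likeness was Pearson's r in log2(FPKM + 1). It is dominated by the group difference common to the genes picked by it, so the r of deviations from the group means is given beside it. COL23A1, a transmembrane collagen, had r = 0.996 (0.733 for deviations), with 0.894 FPKM in S34F and 1.55 FPKM in WT. AC156455 had r = 0.991 (0.316), AC139530 had r = 0.989 (0.784) and the pseudogene RPL23AP65, whose reads may belong to other copies of its family, had r = 0.982 (0.482).

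TRMT112, an activating partner of several methyltransferases, had r = 0.986 (0.810) although its means were 75.8 FPKM in S34F and 78.7 FPKM in WT. Its libraries fell in a similar order and spacing to those of CCDC69, over a far smaller range. The genes with the most opposite patterns were SGF29 (r = −0.987, and −0.176 for deviations), ANAPC13 (−0.983 and −0.494), SRXN1 (−0.982 and −0.497), PPP6R3 (−0.976 and −0.157) and ARMT1 (−0.972 and −0.363). For all 5 the r of deviations was far weaker than the r over the libraries. In all, 27 of the 10941 other genes had r of at least 0.95 and 16 had r of at most −0.95.

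None of the compared components of the central spindle passed the test. Calls here are genes with an unadjusted limma p under 0.05, and over all genes compared there were 262 calls of 10942, or 2.39%, with 172 lower in S34F (1.57%) and 90 higher (0.823%). The count was 443 when the replicate numbers entered the fit as a block. After Benjamini-Hochberg adjustment limma called 0 genes (0.0%). Of 20 central spindle and cytokinesis genes, 18 reached a mean of 1 FPKM (KIF20B and KIF14 did not). Limma called 0 of these 18, both at the unadjusted and at the adjusted threshold. With 18 genes, a count of 0 cannot be told apart from the 2.39% over all genes. The median log2 fold change of the 18 was 0.03 beside 0.01 over all genes compared. They ran from −0.21 for ARHGEF2, an activator of RHOA, to 0.45 for CLASP1, a microtubule-stabilising protein.

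PRC1, the bundling protein, stood at 17.1, 8.45 and 10.6 FPKM in S34F replicates 1, 2 and 3 and at 14.2, 8.69 and 10.2 FPKM in WT replicates 1, 2 and 3. KIF23, the motor of centralspindlin, stood at 3.10, 3.46 and 1.79 FPKM in S34F and at 2.94, 2.77 and 2.10 FPKM in WT, in the same order of replicates. Both genes overlapped between the groups.

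The kinase AURKB averaged 17.7 ± 4.41 FPKM in S34F and 18.6 ± 0.871 FPKM in WT (SD, n = 3 each). The kinase PLK1 averaged 46.7 ± 13.3 FPKM in S34F and 42.5 ± 2.78 FPKM in WT (SD, n = 3 each). For both, S34F replicate 3 was the lowest of the 6 libraries, at 12.7 FPKM for AURKB and 31.5 FPKM for PLK1. Without that library limma called PLK1 higher (log2 fold change 0.35) and ARHGEF2 lower (−0.22), 2 of 18 genes, in a comparison that called 10.6% of all genes. Without WT replicate 2 it called CLASP1 higher (0.70), 1 of 18 genes, beside 1.66% of all genes. CCDC69, by FPKM, lay above 7 of the 18 genes in WT and above 1 of them in S34F.

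Among genes of microtubule dynamics, a single one was called at the unadjusted threshold, MAPRE3, which was lower in S34F. Of 21 such genes, 16 reached a mean of 1 FPKM (CLIP1, KIF18A, SPAST, MTUS1 and MTUS2 did not). Limma called 1 of 16 (6.25%, beside 2.39% of all genes) at the unadjusted threshold and 0 after adjustment. The median log2 fold change of the 16 was −0.03. The called gene was MAPRE3, a protein of the EB family that tracks growing microtubule ends. It stood at 15.3, 14.7 and 16.2 FPKM in S34F replicates 1, 2 and 3 and at 18.9, 19.2 and 19.2 FPKM in WT replicates 1, 2 and 3. All S34F libraries lay below all WT libraries, with a log2 fold change of −0.29 (SE 0.09), an unadjusted p of 0.0172 and a Benjamini-Hochberg adjusted p of 1.00 by limma. The call was lost without S34F replicate 1 or 2 and without WT replicate 1 or 2. Its relatives MAPRE1 and MAPRE2 had log2 fold changes of 0.10 and −0.20 and were not called. CCDC69 lay above 2 of the 16 genes in WT and above 0 of them in S34F.

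The annotation terms that the table gives to CCDC69 were read in the same way, on lists taken after the table had been seen. Of 23 other genes with the term spindle midzone, 17 were compared and limma called 1 lower (5.88%, beside 2.39% of all genes), MAPRE3 again. Of 153 with the term midbody, 121 were compared and limma called 2, both lower: MAPRE3 and LYRM1. That share, 1.65%, was below the 2.39% of all genes. LYRM1, a small protein of the LYR family, averaged 3.08 FPKM in S34F and 4.77 FPKM in WT. With the replicate block the midbody list had 6 calls, these 2 and ARL2BP, HSP90B1, HSPA5 and PPP1CC, which were higher. The blocked fit called 443 of all 10942 genes. After Benjamini-Hochberg adjustment neither list held a call by limma, with or without the block.

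None of the compared neighbours of CCDC69 on chromosome 5 passed the test. Of 58 genes of the table that start within 2 Mb of the start of CCDC69, 22 reached a mean of 1 FPKM. Limma called 0 of the 22 at the unadjusted threshold, beside 2.39% of all genes, and 0 after adjustment. With 22 genes, a count of 0 cannot be told apart from that share. The median log2 fold change of the 22 was 0.01, with a range from −0.35 to 0.16. With no filter it called 2 of the 58, AC008641 lower (−0.43) and AC011374 higher (0.17), beside 904 of 31142 genes. AC008641, 65.7 kb away on the side of lower coordinates, stood at 0.456 to 0.612 FPKM in S34F and at 1.04 to 1.19 FPKM in WT. SLC36A1, an amino acid transporter whose start lies 213 kb away on the side of higher coordinates, averaged 3.79 FPKM in S34F and 3.27 FPKM in WT. SPARC, a matricellular protein 463 kb away on that side, averaged 14.5 FPKM in S34F and 15.9 FPKM in WT. Both differences were smaller than that of CCDC69. Copy number of the region was not tested.

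The starts of GM2A and ANXA6 lie on the side of lower coordinates, but GM2A runs on to position 151270440, beyond the start of CCDC69. GM2A, the activator protein of lysosomal GM2 ganglioside breakdown, starts at position 151212150 inside CCDC69 and runs on the opposite strand, with an overlap of 11996 bases of the gene bodies but 0 shared exon bases. Whether reads were assigned by strand is not given in the sources used here. GM2A stood at 12.7, 11.6 and 20.1 FPKM in S34F replicates 1, 2 and 3 and at 18.5, 18.2 and 19.0 FPKM in WT replicates 1, 2 and 3. It was lower in S34F replicates 1 and 2 but highest of all in S34F replicate 3, so the groups overlapped, with a log2 fold change of −0.35 (SE 0.20).

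ANXA6, a calcium-dependent membrane-binding protein whose start is 66.3 kb from that of CCDC69, stood at 5.89, 5.96 and 8.55 FPKM in S34F replicates 1, 2 and 3 and at 8.13, 6.97 and 8.68 FPKM in WT replicates 1, 2 and 3. Again S34F replicates 1 and 2 lay below all WT libraries and S34F replicate 3 did not. Without S34F replicate 3, limma called 3 of the 22 neighbours lower, GM2A (−0.58), ANXA6 (−0.36) and SMIM3 (−0.30), where it called 10.6% of all genes. Without S34F replicate 2 it called NDST1 lower (−0.52), where it called 2.18% of all genes. CCDC69 had its lowest value in S34F replicate 3, the library in which GM2A and ANXA6 stood within or above the range of WT.

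Of the marker genes of other blood cells, 2 monocytic ones were called, both lower in S34F. Summed over the 12 monocytic markers, the level ran from 24.1 to 37.7 FPKM in S34F libraries and from 34.7 to 38.0 FPKM in WT libraries. Of the 4 that were compared, limma called 2 lower at an unadjusted p, ITGAM (1.81 against 3.03 FPKM) and CD33 (2.05 against 2.83 FPKM), and 0 after Benjamini-Hochberg adjustment. Of all genes compared, 2.39% were called at the unadjusted threshold in either direction, and 1.57% of all genes compared were called lower. Of those under 1 FPKM, CEBPA ran the other way, from 0.769 to 0.955 FPKM in S34F and from 0.469 to 0.723 FPKM in WT. LYZ, at 8.52, 8.82 and 23.2 FPKM in S34F replicates 1, 2 and 3 and 16.96 to 18.8 FPKM in WT, was not called, and neither was SPI1. Summed over the 7 lymphoid markers of the table, the level ran from 9.50 to 16.8 FPKM in S34F and from 17.8 to 18.5 FPKM in WT, most of it CD3D, which was not called, while CD79B was at 0.368 to 1.66 FPKM in S34F and 0.342 to 0.701 FPKM in WT. The erythroid sum overlapped between groups, at 12140 to 13909 FPKM in S34F and 11747 to 12839 FPKM in WT, and limma called 0 of the 12 erythroid markers. The part of these markers in the difference of CCDC69 was not tested.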

How the data were processed

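RNA was extracted with TRIzol from 3 S34F and 3 WT samples of SKM-1 cells and sequenced on an Illumina X10. The deposited table holds 1 FPKM value per gene and library, which the authors made. Their processing notes name StringTie and edgeR, while aligner, genome build, annotation and strand setting are not given in the sources used here. The deposited file is named for raw counts, but 100% of its values above 0 are not whole numbers, and no count test was run. Columns with the authors' own fold changes, p-values, q-values and calls were not used.

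Genes with a mean of at least 1 FPKM over the 6 libraries (10942 of 31142) were tested on log2(FPKM + 1) with limma 3.58.1 (R 4.3.3), with a mean-variance trend, two-sided, with Benjamini-Hochberg adjustment. Calls in gene lists are at an unadjusted p under 0.05 and were read from that fit over all genes. Same-numbered libraries deviated together from their group means (r = 0.212, 0.174 and 0.380 for numbers 1, 2 and 3), all above 0.1. The study's text speaks of pairs of samples, so the numbers were taken as possible pairs, although no label states what they share. These r did not tell numbers 1 and 2 apart. S34F replicate 1 had r = 0.134 with WT replicate 2, and S34F replicate 2 correlated more with WT replicate 1 (0.197) than with WT replicate 2. The values reported are nevertheless from the fit without a block, since the study's methods name none. Values from a fit blocked on these numbers are given where they change a call or move a count by over 1.5 times.

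Depth was estimated from the value of 1 fragment in genes with 1 exon and 1 transcript. That value was searched for only within a preset range, so the range of possible depths was limited beforehand. The fragment counts, detection limit and Poisson intervals rest on this estimate. Positions, transcripts and sequences come from GENCODE 29 (GRCh38), in which 31002 of the gene IDs were found. Tested on simulated data for S34F against WT over 10942 genes, the fit found 194 of 200 genes changed by a log2 of 1 at an unadjusted p under 0.05, 113 at an adjusted p under 0.05, and 5.05% of unchanged genes at the former. The simulated libraries varied independently, while the real ones deviated together by replicate number. These rates therefore need not hold for the real data, where 2.39% of genes were called at the unadjusted threshold.

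CCDC69 and the gene lists were chosen with earlier results of these data known. The genes named are CCDC69, the next 5 by limma's p, the 5 most and 5 least correlated with it, every list member with an unadjusted p under 0.05, PRC1, AURKB, PLK1 and KIF23, the nearest 2 neighbours on each side with a mean of at least 1 FPKM, and U2AF1. List members at the ends of a range, markers, MYC, MAPRE1, MAPRE2 and members called with the block, with no filter or when a library was left out were named after their values were seen. Alternatives were other pseudocounts, filters, scalings, variance models, the block, and each library left out.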

Additional observations from a re-analysis of the deposited data

How the results depend on the processing

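CCDC69 was lower in S34F under all 16 alternatives that could give it a value. With a filter at a mean of 5 FPKM it could not be computed, its own mean being 4.02. CCDC69 was selected for groups that did not overlap, so no pseudocount or library left out could reverse its direction. Its log2 fold change was −1.69 and −1.74 with pseudocounts of 0.1 and 0.01, against −1.33, since a smaller pseudocount compresses low values less, and −1.39 to −1.27 with 1 library left out. Its rank by size of fall was 18 and 32 with those pseudocounts and 11 to 25 with 1 library left out. The 262 calls over all genes became 904 with no filter, 113 at a mean of at least 5 FPKM, 443 with the replicate block (269 lower, 174 higher), 162 to 1160 with 1 library left out (162 without WT replicate 1, 1160 without S34F replicate 3) and 1846 without both libraries numbered 3. Limma's adjusted calls, 0 in the fit reported, were 1 without S34F replicate 1, 3 without WT replicate 3 and 8 without both libraries numbered 3. Central spindle calls were 1 with no filter (ARHGEF2, lower), 0 to 2 with 1 library left out and 2 without both libraries numbered 3 (PLK1 higher, ARHGEF2 lower). Microtubule calls were 0 to 1 with 1 library left out and 2 without both libraries numbered 3 (MAPRE3 and TACC3, lower). Neighbour calls were 2 with no filter (AC008641 lower, AC011374 higher), 0 to 3 with 1 library left out and 3 without both libraries numbered 3 (GM2A, ANXA6 and SMIM3, lower). Without both libraries numbered 3, the calls were 2 of 18 central spindle, 2 of 16 microtubule and 3 of 22 neighbour genes, beside 1846 of 10942 genes. The replicate block also took the midbody calls from 2 to 6 and changed no call in the other lists or among the markers. The causes were not tested. The value is per gene, so isoforms are not resolved.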
